A study of Poecilia latipinna with 15 samples.

Results

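Whole brains of the female sailfin mollies numbered 1 to 8 in the sample titles were compared between a female-interaction trial (Ff, fish 1, 2, 7 and 8) and a male-interaction trial (Mm, fish 3, 4, 5 and 6). These 8 females are part of a series of 15, and they were chosen from it by their number and trial alone, with no measured value. The study had itself selected the females of the series on behavior. It kept those that spent long near the fish shown to them, with a broad range of mate preference. The sailfin molly, Poecilia latipinna, is a livebearing fish, and the females were sexually experienced adults from a semi-natural pond, with no allele or drug in either group and with no age given. All 8 had been kept alone for 2 weeks and then watched a large and a small stimulus fish behind clear dividers for 30 min, females in Ff and males in Mm. Each brain was taken right after the trial and sequenced as its own library, so each value belongs to 1 female. There was no group without a social partner, so a difference is one between the trials and not an effect of company itself. Stimulus fish were used repeatedly, so a difference by the sex of the company cannot be told apart from one between those particular fish. The other 7 females, numbered 9 to 19 (3 Ff and 4 Mm), served as separate females in which to look at the same differences. They also counted in the abundance filter of transcripts and in the fits over all 15 females.

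In fish, as in other vertebrates, a social encounter is known to change neural transcription within minutes, first through immediate early genes that code for transcription factors and then through their targets. Neurons that carry nonapeptides, sex steroid receptors and dopamine form much of the circuitry for mating and shoaling, and they are a small part of the brain. A whole-brain library averages over all of these cells, and fewer cells of a type cannot be told apart from less RNA per cell. The deposited files identify transcripts by Ensembl number. Of the 31813 identifiers 0 could be paired with a gene name here, so brain markers and gene families were not examined, all counts are of transcripts, and transcripts are printed by identifier only.

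The libraries of fish 1 to 8 held between 3424641 and 10555933 estimated counts (reads assigned to transcripts by Kallisto), with fish 4 the shallowest and fish 8 the deepest. The total averaged 7205200 ± 2289700 in Ff and 5904500 ± 2908000 in Mm (SD, n = 4 each), a difference within the spread (2-sided exact permutation test over 70 assignments, p = 0.457, adjusted 0.686, where the smallest possible is 0.0286). Between 23555 and 25530 transcripts had a count above 0 in a library. The 100 most abundant transcripts took 16.0, 16.4, 17.6 and 18.7% of the counts in fish 1, 2, 7 and 8, and 15.8 to 16.6% in the 4 Mm females (exact permutation p = 0.171, adjusted 0.686). No pair of these libraries could be the same library deposited again, since their counts differed by 9.61 times sampling noise or more (chi-square over its degrees of freedom).

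The 4 Ff females did not lie together on the main axis of expression. The first principal component held 23.7% of the variance in log2 CPM (counts scaled to the library total, adjusted by a TMM factor for each library). Along it fish 1 and 2 scored -102.1 and -98.2, and fish 7 and 8 scored 86.2 and 97.3. The Mm females lay between them, at -37.9 for fish 3, -9.09 for fish 4, 48.8 for fish 5 and 15.1 for fish 6. The scores thus followed the number of the female, and the context means did not differ (exact permutation p = 0.886, adjusted 0.886). Fish number was balanced between the contexts, so any score following it along a straight line has near-equal context means. The test of the means is therefore no separate evidence. Over the 8 females the score and the number had a Pearson's r of 0.965 (adjusted p = 0.00179 from a raw exact permutation p of 0.000446) and a Spearman's rho of 0.976 (adjusted p = 0.00179 from a raw exact permutation p of 0.000397). Leaving out fish 1 and 8 gave r = 0.935. This relation was noticed in the same data, and the adjustment covers 8 correlations of the score. On the second component (16.6% of the variance) the Ff females lay closer together, between 0.28 and 54.6, and outside them were Mm fish 3, 4 and 5 at -83.3, -50.2 and -66.6 and Mm fish 6 at 104.4. The context means did not differ beyond this spread (exact permutation p = 0.314, adjusted 0.686).

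**Figure D1:**
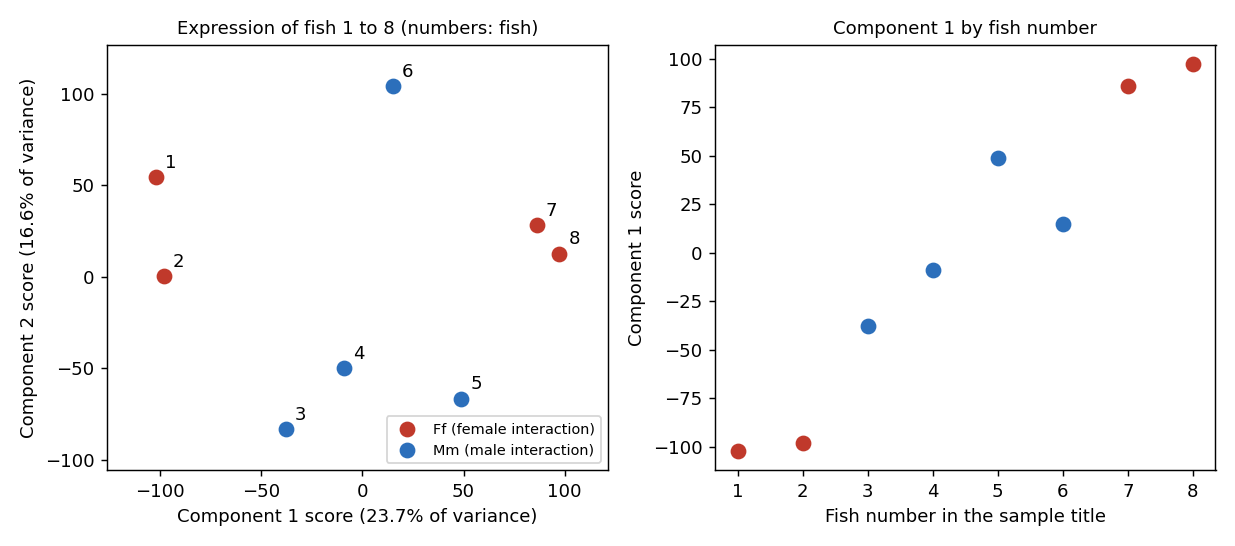
Left, scores of fish 1 to 8 on the first 2 principal components of log2 CPM, each point a female labelled with her number. Right, the score on component 1 against fish number. Red points are Ff and blue points Mm. The Ff females 1 and 2 lie at one end and 7 and 8 at the other, with the Mm females 3 to 6 between them.

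The score on component 1 was also compared with measures of the libraries. Against the total count its r was 0.293 (exact permutation p = 0.473, adjusted 0.473) and its rho 0.333 (exact permutation p = 0.428, adjusted 0.473), and r fell to 0.134 without fish 3 and 8. Against the number of transcripts detected its r was 0.745 (exact permutation p = 0.0397, adjusted 0.0733) and its rho 0.738 (exact permutation p = 0.0458, adjusted 0.0733). Against the share of the 100 most abundant transcripts its r was 0.744 (exact permutation p = 0.0272, adjusted 0.0726) and its rho 0.714 (exact permutation p = 0.0576, adjusted 0.0768). Without fish 7 and 8, the females farthest from the median of either measure, the latter values of r were 0.399 and 0.301. Leaving out the extremes of a measure narrows its range, which by itself tends to lower r. For fish number the females left out were fish 1 and 8, so these values are not a like comparison with it. What the fish numbers stand for is not given in the sources used here, and the part of the library measures in this order was not tested.

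Library by library, fish 1 and 2 correlated at r = 0.868 over the transcripts tested and fish 7 and 8 at r = 0.889, the highest value of the 28 pairs. Between these pairs of Ff females r ran only from 0.819 to 0.831. Within Mm r ran from 0.835 to 0.863 (median 0.850, 6 pairs), and between the contexts from 0.834 to 0.866 (median 0.850, 16 pairs). A typical pair of females from different trials was therefore no less alike than a typical pair of Mm females, while the median within Ff was 0.830. These are descriptions across transcripts, which are not independent replicates.

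The spread within each context was also compared transcript by transcript. The median SD was 0.34 in Ff and 0.32 in Mm (log2 CPM), and 53.5% of transcripts varied more in Ff. Context took 13.1% of the summed squared deviation of all transcripts, where an equal share for each of the 7 degrees of freedom would be 14.3%, and a straight line in fish number took 23.1%. In 394 transcripts (1.82% of those tested) fish 1 and 2 lay on one side of all 4 Mm females and fish 7 and 8 on the other. Of these, 201 were highest in fish 1 and 2 (0.928%) and 193 were highest in fish 7 and 8 (0.891%).

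In voom and limma, no transcript differed between female and male company in these 8 brains once the number of tests was taken into account. Transcripts were tested when their TPM exceeded 2 in at least 3 of the 15 females (TPM is Kallisto's abundance per effective length, scaled to the same total in every library). Of the 21671 tested, 917 had an unadjusted p-value below 0.05 between Ff and Mm. That is 4.23% of the transcripts, fewer than the 1084 that 5% would make, while a fit with fish number as a term gave 5.62%. A total of 478 were higher in Ff (2.21%) and 439 were higher in Mm (2.03%). After Benjamini-Hochberg adjustment 0 remained, and the smallest adjusted p-value in limma was 0.982. With edgeR's quasi-likelihood test 790 passed unadjusted (3.65%) and 0 adjusted, and with DESeq2 783 passed unadjusted (3.61%) and 20 adjusted (0.0923%). The adjustment in DESeq2 covered fewer transcripts than in limma and edgeR, because its default filter leaves out those of low mean count. Of the 20 transcripts of DESeq2, 17 had no overlap between the contexts and 14 were among the 917 of limma. A total of 541 transcripts passed the unadjusted threshold in all 3 tests.

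The values of the contexts did not overlap in 549 transcripts (2.53%), with all 4 Ff females above all 4 Mm females in 289 (1.33%) and below them in 260 (1.2%). Of the 70 ways to assign 8 untied values to the contexts, a share of 0.0286 separates them fully, and 2.53% is below it. That share takes the females as interchangeable, although the main axis of expression followed their number. It therefore cannot show whether 2.53% is an excess. Of these 549, 364 were also among the 917 and 185 were not. The median difference of the transcripts called on the unadjusted p-value was 0.71 (log2) for those higher in Ff and -0.63 for those lower in Ff, and 299 of the 917 differed by less than 0.5 on the log2 scale. A difference of 2-fold or more was seen in 171 of those higher in Ff and 133 of those lower in Ff. Over all 21671 transcripts tested, called or not, 2216 differed by that much in either direction. The transcripts called had a median of 9.84 TPM and a length of 2024 bases, against 11.3 TPM and 1782 bases for all those tested. In 55.2% of them, against 48.7% of all, at least 1 of the 8 libraries had an estimated count that was not whole (by more than 0.001), which shows that Kallisto had divided reads between similar transcripts. The share of reads that belongs to each of such transcripts is uncertain, among them 3 of the 4 transcripts described next, ENSPLAT00000027093.1, ENSPLAT00000024771.1 and ENSPLAT00000013797.1.

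The transcript with the smallest limma p-value of all, ENSPLAT00000027093.1, was more abundant after male company. It was listed at 10.8, 8.51, 13.3 and 11.9 TPM in Ff fish 1, 2, 7 and 8 and at 22.5, 24.8, 29.6 and 24.1 TPM in Mm fish 3, 4, 5 and 6. The 4 Mm females were all above the 4 Ff females, with means of 25.2 ± 3.03 and 11.1 ± 2.01 TPM (SD, n = 4 each). The difference was -1.12 (log2, Ff minus Mm, standard error 0.17, 95% interval -1.50 to -0.74), which was 2.18-fold higher in Mm. Its p-value was 1.0e-04 in limma, and its adjusted p-value was 0.982 there. By edgeR the adjusted p-value was 1, and by DESeq2 it was 6.4e-06. The smallest adjusted p-value in DESeq2, 9.1e-09, belonged to another transcript.

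The second transcript higher in Mm, ENSPLAT00000024771.1, was listed at 10.3, 12.5, 6.23 and 7.15 TPM in Ff fish 1, 2, 7 and 8. In Mm fish 3, 4, 5 and 6 it was listed at 33.1, 19.7, 41.1 and 23.1 TPM. The groups did not overlap, although the Mm females spanned a wide range. The difference was -1.77 (log2, standard error 0.32, 95% interval -2.51 to -1.04), or 3.42-fold higher in Mm, with an adjusted p-value of 0.982 in limma and 0.0107 in DESeq2.

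Of the transcripts higher after female company, ENSPLAT00000025847.1 had the smallest p-value in limma. Ff fish 1, 2, 7 and 8 were listed at 27.8, 40.0, 33.2 and 27.1 TPM and Mm fish 3, 4, 5 and 6 at 17.9, 16.6, 14.3 and 16.6 TPM. The Mm females were close together, with a mean of 16.4 ± 1.48 TPM, and all of them were below the Ff females, with a mean of 32.0 ± 5.98 TPM (SD, n = 4 each). The difference was 0.97 (log2, standard error 0.17, 95% interval 0.60 to 1.35), or 1.96-fold higher in Ff, with an adjusted p-value of 0.982 in limma and 0.000482 in DESeq2.

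The last of the 4, ENSPLAT00000013797.1, was a transcript of low abundance. It was listed at 4.43, 3.31, 4.94 and 4.63 TPM in Ff fish 1, 2, 7 and 8 and at 1.51, 3.02, 1.61 and 1.22 TPM in Mm fish 3, 4, 5 and 6. The gap between fish 2 and fish 4 was the smallest, and the groups still did not overlap. The difference was 1.45 (log2, standard error 0.26, 95% interval 0.86 to 2.03), or 2.73-fold higher in Ff, with an adjusted p-value of 0.982 in limma and 0.0596 in DESeq2. Since none of the 4 overlapped, fish 1 and 2 necessarily lay on the same side of the Mm females as fish 7 and 8. With fish number as a term in the model their differences were -1.15, -1.70, 0.97 and 1.42 in the order given (log2), and the smallest adjusted p-value among them was 0.404 in limma. A straight line in fish number is balanced between the contexts, so adding it could hardly change these differences and does not test their relation to number. They were picked as the extremes of 21671 tests, so their differences describe the extremes of these 8 females.

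**Figure D2:**
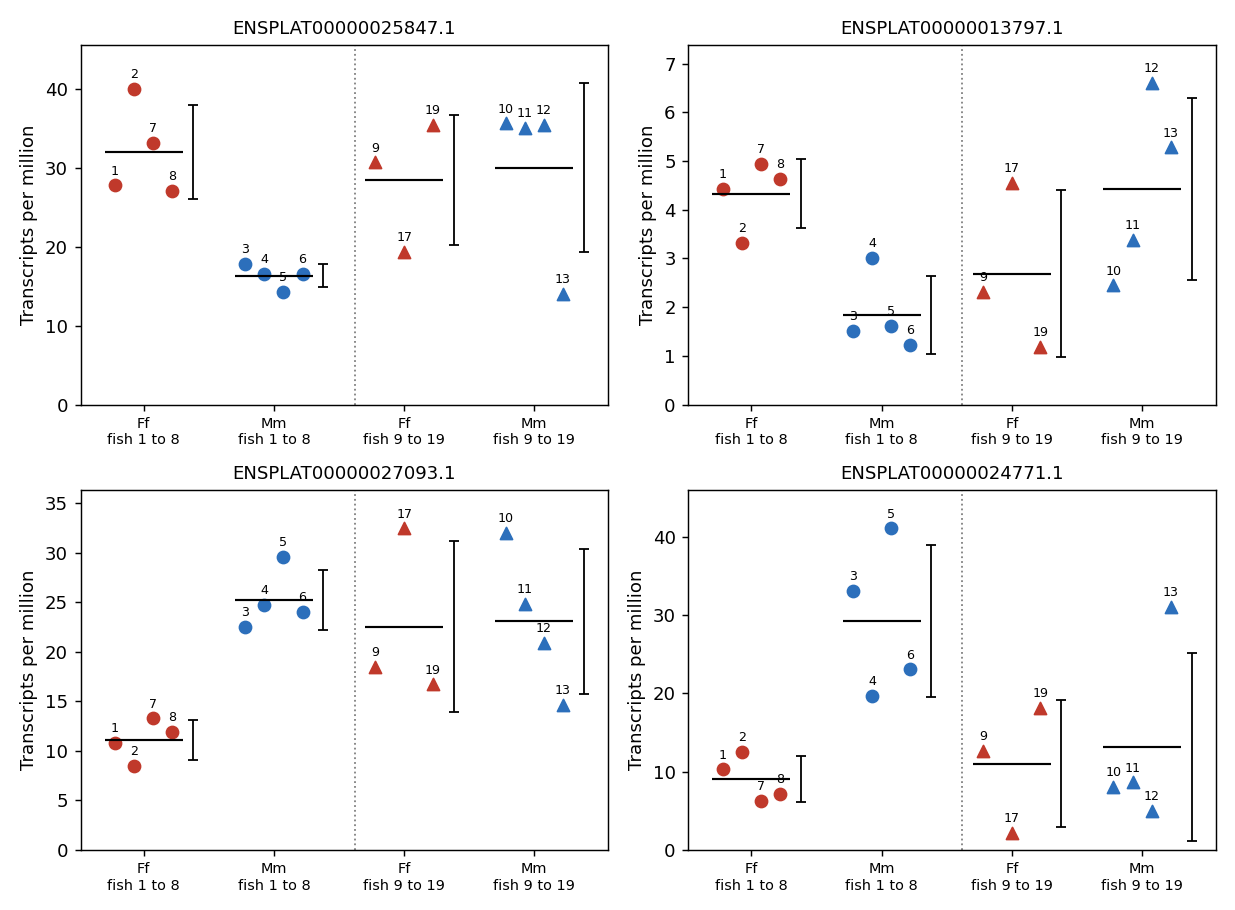
TPM of the 4 transcripts in every female, each point a female with her number, red for Ff and blue for Mm, circles for fish 1 to 8 and triangles for fish 9 to 19. Horizontal lines are means and vertical bars are SD. In fish 1 to 8 the contexts do not overlap in any of the panels, and in fish 9 to 19 they overlap in all of them.

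The error of a difference depended on the abundance of the transcript. In 4 equal bands of mean level, from the lowest to the highest, the median standard error was 0.91, 0.29, 0.18 and 0.13 (log2). The median estimated count of a transcript in these bands was 13.5, 58.0, 166 and 535 per library. The share called on the unadjusted p-value was 4.01, 4.76, 4.49 and 3.67%, so no band held most of the calls. The called differences had a median size of 2.38 in the lowest band and 0.35 in the highest (log2, either direction). Since a call needs a difference that is large for its error, this order was fixed by the selection.

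For most transcripts the 8 females sufficed to bound the difference between the contexts. The 95% interval of the difference lay wholly inside a 2-fold change in either direction for 13285 transcripts, or 61.3%. This share was 4.91% in the lowest band, 57.6% and 87.2% in the middle bands and 95.6% in the highest. In the lowest band a 2-fold difference was mostly not detectable with these 8 libraries. The intervals are those of single transcripts and are not adjusted for their number.

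**Figure D3:**
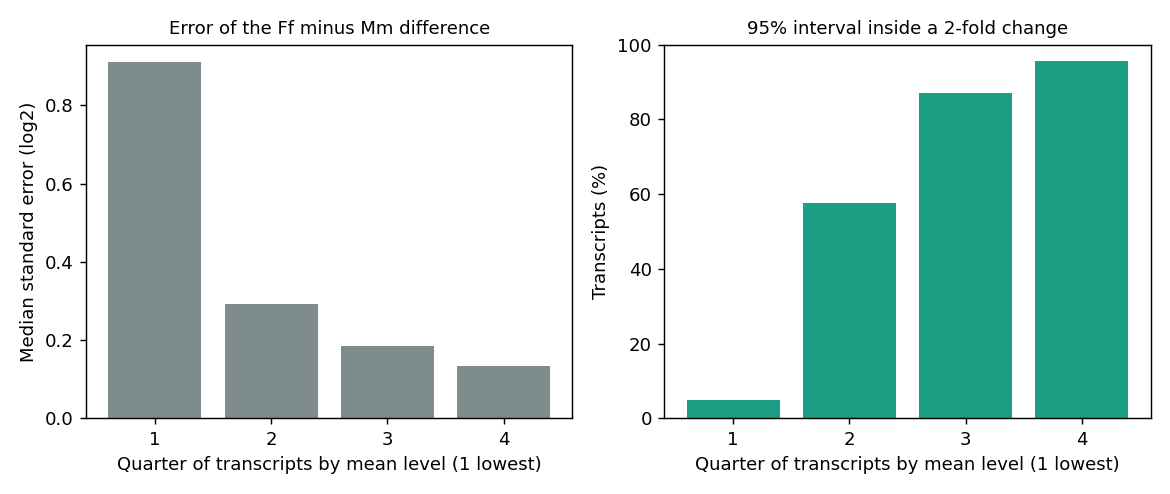
Left, median standard error (log2) of the Ff minus Mm difference in fish 1 to 8 for 4 equal bands of transcripts by mean level, where band 1 is the lowest. Right, percent of transcripts in each band whose 95% interval lies inside a 2-fold change in either direction. The error falls from 0.91 to 0.13 and the share rises from 4.91% to 95.6%.

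Fish 9 to 19 share no female with fish 1 to 8, and the transcripts called in fish 1 to 8 did not tend to keep their direction in them. A straight line in fish number is not balanced between the contexts there, with Ff fish 9, 17 and 19 and Mm fish 10 to 13. A context difference in fish 9 to 19 is therefore mixed with any course over the numbers, and so is its comparison with fish 1 to 8. Of the 917 transcripts, 393 (42.9%) had the same sign in fish 9 to 19, against 48.1% of all transcripts tested. When fish 8 was left out of the selection this share was 52.9%, against 51.7% of all. The transcripts higher in Ff in fish 1 to 8 had a median difference of -0.08 (log2) in fish 9 to 19, and those lower in Ff had a median of 0.06, against 0.01 for all transcripts. Across the 21671 transcripts the differences in the separate females had a Pearson's r of 0.00707 and a Spearman's rho of -0.00421. These correlations weight every transcript alike, also those of the lowest band, whose median standard error in fish 1 to 8 was 0.91 (log2). They were not computed by band. In fish 9 to 19 alone, 796 transcripts (3.67%) passed the unadjusted threshold in limma, 458 of them higher in Ff (2.11%) and 338 lower (1.56%). The adjusted threshold was passed there by 0 in limma, 1 in edgeR (0.00461%) and 34 in DESeq2 (0.157%).

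A total of 47 transcripts passed the unadjusted p-value in both sets of females. They were 5.13% of those called in fish 1 to 8, where 3.67% of all transcripts tested were called in fish 9 to 19. They were 5.90% of those called in fish 9 to 19, where 4.23% of all were called in fish 1 to 8. Of these 47, 8 were higher in Ff and 11 lower in Ff in both sets, and 28 had opposite signs. The difference between the context effects of the sets was tested over all 15 females in limma, with no term for fish number within a set. It passed the unadjusted p-value in 1095 transcripts (5.05%) and the adjusted one in 0, with 39 adjusted in DESeq2 and 0 in edgeR. Of the 917 transcripts, 303 were among the 1095, and 292 of them had opposite signs, but the 917 were chosen on fish 1 to 8, so this count is not a test.

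**Figure D4:**
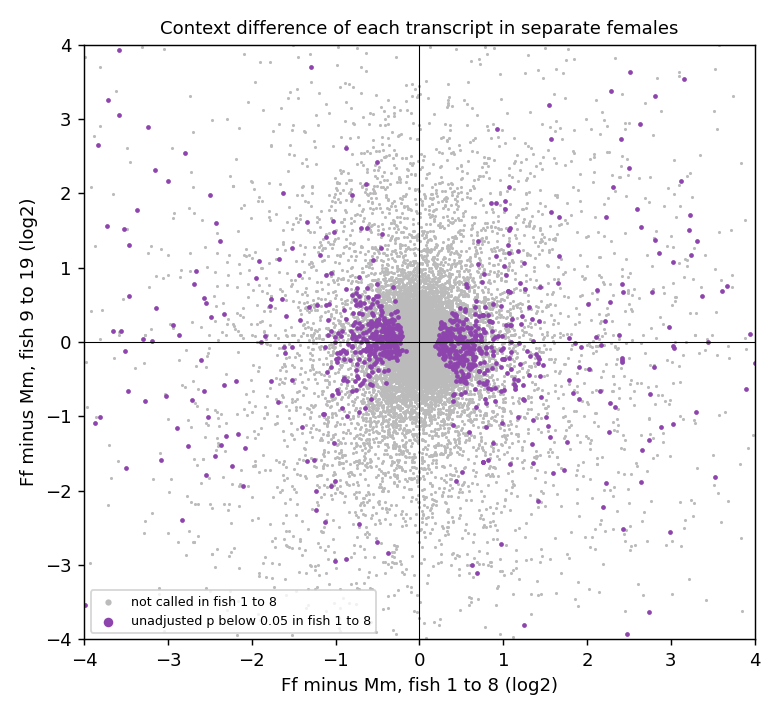
Ff minus Mm difference (log2) of each transcript in fish 1 to 8 on the x axis and in fish 9 to 19 on the y axis. Purple points have an unadjusted p below 0.05 in fish 1 to 8. A total of 258 points lie outside the axes, which end at 4. The purple points lie above and below the horizontal line on both sides, with 42.9% of them in the quadrants of equal sign.

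The 4 transcripts printed above overlapped between the contexts in fish 9 to 19. ENSPLAT00000025847.1 was listed at 30.7, 19.3 and 35.5 TPM in Ff fish 9, 17 and 19 and at 35.7, 35.1, 35.5 and 14.0 TPM in Mm fish 10, 11, 12 and 13, a difference of -0.10 (log2, standard error 0.38, adjusted p = 0.999 in limma). ENSPLAT00000027093.1 was listed at 18.5, 32.5 and 16.7 TPM in Ff and at 32.0, 24.8, 20.9 and 14.6 TPM in Mm, a difference of -0.06 (log2, standard error 0.28, adjusted p = 0.999 in limma). ENSPLAT00000013797.1 was listed at 2.32, 4.55 and 1.18 TPM in Ff and at 2.45, 3.38, 6.60 and 5.28 TPM in Mm, where its difference was -0.75 (log2, standard error 0.49, adjusted p = 0.999 in limma). In each of these 3 transcripts the Mm females of fish 9 to 19 spanned a wider range than the Mm females of fish 1 to 8. The transcripts were picked by their p-value in fish 1 to 8, which favors a narrow range there, so this is not a test.

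ENSPLAT00000024771.1 was listed at 12.7, 2.14 and 18.2 TPM in Ff and at 8.03, 8.62, 5.01 and 31.0 TPM in Mm, with fish 13 far above the other Mm females. Its difference was -0.53 (log2, standard error 0.92, adjusted p = 0.999 in limma). Only fish 13 reached the range of the Mm females of fish 1 to 8 for this transcript. The adjusted p-value in limma for a difference of the context effects between the sets of females was 0.968 for it and 0.949 for each of the other 3.

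The count of 917 depended on which females were in the comparison. Leaving out 1 of the 8 females gave between 649 transcripts (2.99%, without fish 3) and 1258 (5.8%, without fish 1) at the unadjusted p-value. Without fish 3, 278 transcripts were higher in Ff, against 478 with her. Without both fish 1 and 2, so that fish 7 and 8 alone stood for Ff, 2619 transcripts passed (12.1%), 1576 of them higher in Ff. Without both fish 7 and 8 the count was 1163 (5.37%). In the first of these fits all Ff females were numbered above the Mm females, and in the second below them. Context and fish number therefore cannot be told apart in either. The adjusted threshold was passed by 0 transcripts in limma in both of these fits, and by 1 without fish 8. With log2(TPM + 1) in limma 38.9% of 840 transcripts were higher in Ff, where 52.1% of the 917 were, a fit that differs in unit, scaling and weights at once. Without TMM factors the share was 48.0%, and without fish 3 it was 42.8%.

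With fish number added to the model as a straight line, 1217 transcripts (5.62%) passed the unadjusted p-value for context, and 785 of the 917 were among them. Some other fits shared more of the 917, with 908 for unrounded counts and 873 without TMM factors. Fewer were shared when the preference score was a term (369) and without fish 3 (365). Without fish 1 and 2 the number shared was 574, and without fish 7 and 8 it was 286. In the limma model with fish number 3812 transcripts (17.6%) followed the number of the female at the unadjusted p-value, 2058 rising with it and 1754 falling. After adjustment 0 remained, with a smallest adjusted p-value of 0.0692, and edgeR gave 3529 unadjusted and 0 adjusted. Because the Ff females were numbered 1, 2, 7 and 8 and the Mm females 3 to 6, a straight line in fish number is balanced between the contexts. A course that bends over the numbers, with the middle apart from both ends, cannot be told apart from context.

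**Figure D5:**
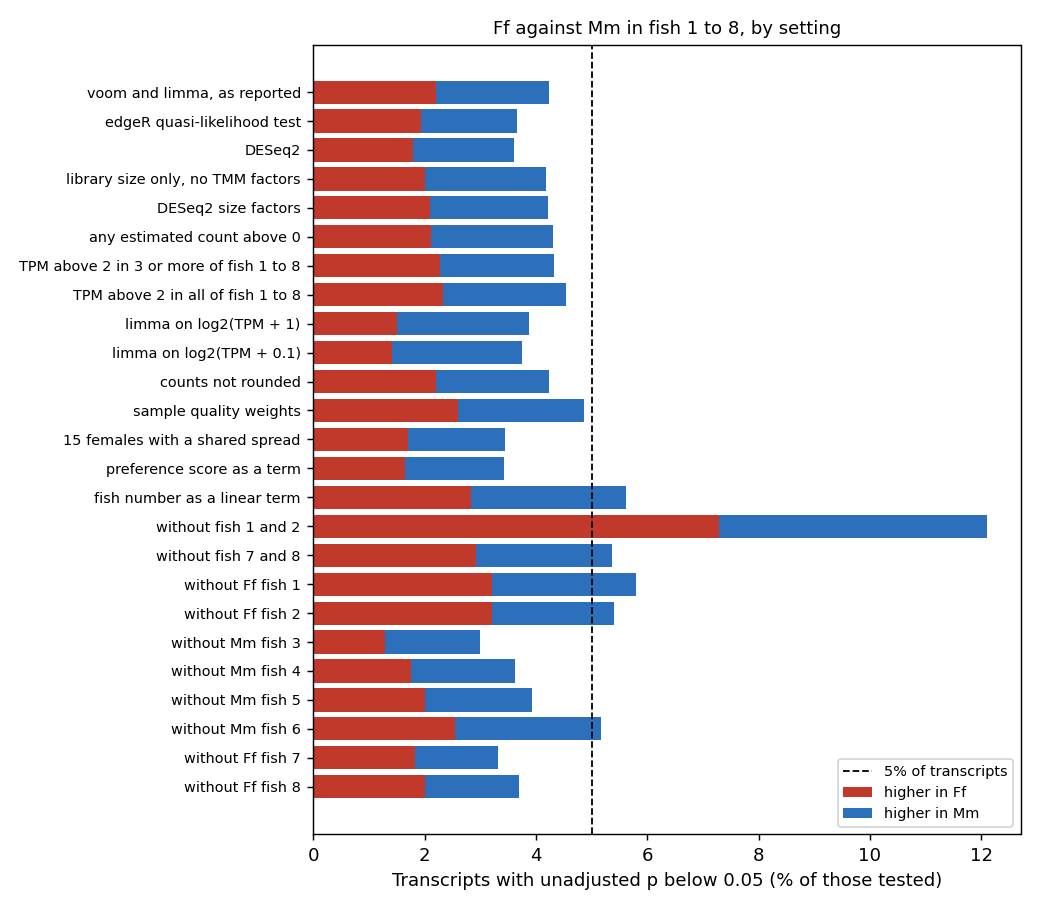
Transcripts with an unadjusted p below 0.05 between Ff and Mm in fish 1 to 8, as a percent of those tested, under each way of testing and for each female left out. The red part of a bar is higher in Ff and the blue part higher in Mm, and the dashed line marks 5% of the transcripts. The fit as reported gives 4.23%, and the fit without fish 1 and 2, where context cannot be told apart from fish number, gives 12.1%.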

How the data were processed

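Whole-brain RNA of 15 female sailfin mollies was prepared with the TruSeq mRNA kit and sequenced as single-end reads, 1 library per female. The authors trimmed the reads with cutadapt, and Kallisto 0.43.0 assigned them to the Ensembl cDNA of the species. Its estimated count for each transcript, which need not be whole, was deposited by the authors. The TPM values in the same files were computed by the authors with Kallisto from these counts and the effective transcript length. The authors' sum by gene could not be repeated, since no table used here pairs transcripts with genes, and no sequence is printed for the same reason.

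The members, gene lists and tests were chosen with earlier results of these data known, and the gene lists (cell type markers and behavioral pathways) could not be used. Transcripts with more than 2 TPM in 3 or more of the 15 females were kept, 21671 in all, with 99.5 to 99.6% of the counts of fish 1 to 8. Transcript counts were rounded and scaled by TMM, steps that the study's methods do not name. They were then fitted with voom and limma and the study's context model (no intercept), which the study applied to counts summed by gene, and without its shuffled-label rate. The p-values are unadjusted or Benjamini-Hochberg adjusted, in limma and edgeR over all transcripts tested. DESeq2 was run with its default filter, which leaves transcripts of low mean count out of the adjustment. Its adjusted p-values therefore cover fewer transcripts, while the shares printed for it are of all those tested. Fish 9 to 19 were fitted alone, and the difference of the context effects over all 15. Principal components were taken from log2 CPM, unscaled. The p-values of library measures are from 2-sided exact permutation tests, adjusted over the 6 comparisons of the contexts. The rule for printed transcripts was the 2 with the smallest limma p-value in each direction. Alternatives were edgeR, DESeq2, other scaling and filters, log2(TPM + 1) and log2(TPM + 0.1), unrounded counts, sample weights, a shared spread, the preference score of the study as a term, and leaving out females. Fish number as a term, the pairs of females left out and log2(TPM + 1) for the difference of the context effects were added after the data were seen. R 4.3.3, limma 3.58.1, edgeR 4.0.16, DESeq2 1.42.0, Python 3.11.15, NumPy 2.4.6 and SciPy 1.17.1 were used, and the scripts were tested on simulated counts.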

Additional observations from a re-analysis of the deposited data

Results flagged for a closer look

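In the 24 groups of 4 females examined for a library far from the rest, 2 were found, where chance alone flags about 1 in 20. Both concern Mm fish 13, which is outside fish 1 to 8. In the Mm females of fish 9 to 19, ENSPLAT00000024771.1 was listed at 31.0 TPM in this female, against 5.01 to 8.62 TPM in the other 3. In the same females ENSPLAT00000025847.1 was listed at 14.0 TPM in fish 13, against 35.1 to 35.7 TPM in the other 3. None of the groups within fish 1 to 8 had a library that far from the rest, in the library measures or in the 4 transcripts printed. The 4 transcripts were picked by their p-value in fish 1 to 8, which favors a small spread there.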

How the results depend on the processing

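Of 24 alternatives to the count of 917 transcripts, 23 stayed within 1.5 times of it, but the transcripts changed, and between 286 and 908 of the 917 were shared. The exception was the fit without fish 1 and 2, with 2619 transcripts, 1576 higher in Ff and 1043 lower. Context cannot be told apart from fish number in that fit. The adjusted count of 0 became 20 with DESeq2, and 0 or 1 with 1 female left out. With log2(TPM + 0.1) 813 transcripts passed unadjusted (3.75%), and 308 of them (37.9%) were higher in Ff. With 1 female left out the unadjusted count ran from 649 (2.99%) to 1258 (5.8%), with 278 to 697 higher in Ff and 322 to 565 lower. Transcripts without overlap ran from 937 to 1353 of the 21671 tested, more than the 549 of all 8 because fewer values must be separated. The share expected with fewer values was not computed, so these counts do not show an excess. The share with the same sign in fish 9 to 19 ran from 39.4 to 52.9%. It passed 50% only without fish 8, where 51.7% of all transcripts had the same sign, and was 47.1% with log2(TPM + 1). Transcripts whose context effect differed between the sets of females ran from 830 to 1308 unadjusted with 1 of 15 females left out, and 0 adjusted. All 15 females gave 1095 of 21671 (5.05%) unadjusted in limma, while DESeq2 gave 39 adjusted. The cause of these changes was not tested. The 4 transcripts printed kept their direction and an unadjusted p-value below 0.05 in all 95 of their alternative results. ENSPLAT00000013797.1 was not in the fit that required a TPM above 2 in all of fish 1 to 8. All of these fits reuse females among whom the 4 were picked as extremes, so this is not separate evidence. No paired analysis was possible because no number is shared between females. No scaling moved the median of all transcripts by as much as 0.1. The sum by gene was not run.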
